A study of Rattus norvegicus with 3 samples.

Results

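The genes described are 10 targets of NRF2, most of which encode enzymes of the antioxidant response: Hmox1, Nqo1, Gclc, Gclm, Txnrd1, Srxn1, Osgin1, Slc7a11, Gsr and Me1. They were chosen by the gene name that the scanner files give to each non-control probe, and they are 10 of the 26115 gene names on the array. They hold 13 probes and 58 spots per array, and 9 of the 10 genes were measured, because the only Gclm probe was not well above background on any array. Expression was measured in ROS17/2.8, a clonal rat osteosarcoma line labelled as osteoblast, on 1 Agilent one-colour array per group. Confluent cells in a mineralization medium with an ascorbate and a glycerophosphate were given polyphosphate for 24 h, at 1 mg/ml (called the high dose) or 0.01 mg/ml (the low dose), or none (the control, for which the labels give no time). With 1 array per group there is no replicate and no p-value, and every ± below is a spot error, which reflects repeat spots within an array but neither labelling nor culture nor biological spread. The 3 arrays are 1 cell line from 1 slide, so position on the slide and dose cannot be told apart.

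NRF2, encoded by Nfe2l2, is a transcription factor that the adaptor KEAP1 holds in the cytoplasm and passes to a CUL3 ubiquitin ligase for degradation. When electrophiles or oxidants modify KEAP1, NRF2 escapes, pairs with a small MAF protein and binds antioxidant response elements, which the repressor BACH1 can also occupy. The targets make glutathione, reduce thioredoxin and peroxiredoxins, supply NADPH and break down heme and quinones. In bone cells NRF2 is known as a regulator of redox balance during differentiation.

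The core of the antioxidant response element was searched as TGACNNNGC, on both strands (GCNNNGTCA on the other), in RefSeq promoter windows of the GRCr8 assembly that run from 250 bases before to 50 after a gene's start. Of 33469 such windows 12.1% held it. The table gave 9 windows for 8 of the 10 genes, and 3 windows held it, those of Gclm, Txnrd1 and Me1. It gave no window for Hmox1 and Gsr, so their promoters were not searched. The matches are shown in capitals with 25 bases on each side, read in the direction of the gene, to show the kind of site through which NRF2 acts. A match is a description of letters and not evidence of binding.
Gclm promoter: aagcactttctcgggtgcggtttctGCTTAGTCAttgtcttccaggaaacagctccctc
Txnrd1 promoter: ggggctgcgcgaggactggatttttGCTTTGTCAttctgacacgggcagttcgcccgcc
Me1 promoter: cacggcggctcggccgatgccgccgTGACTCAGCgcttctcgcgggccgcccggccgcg
These stretches lie at chr2:213031938-213031996 (plus strand), chr7:22755949-22756007 (minus strand) and chr8:96540378-96540436 (minus strand) of GRCr8. The first base of the match lies 172 bases before the start of Gclm, 78 before that of Txnrd1 and 167 before that of Me1. Txnrd1 has 2 windows, and the other held no match.

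The 60-base probes of Hmox1, Osgin1 and Nqo1 are printed because the results turn on what they read. The files place them on rn4 without saying which part of the transcript they match.
Hmox1 probe: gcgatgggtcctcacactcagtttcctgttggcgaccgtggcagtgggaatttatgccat
Osgin1 probe: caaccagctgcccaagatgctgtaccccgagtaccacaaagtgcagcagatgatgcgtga
Nqo1 probe: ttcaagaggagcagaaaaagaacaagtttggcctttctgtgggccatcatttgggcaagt
The Hmox1 probe lies at chr19:13969336-13969395 and the Osgin1 probe at chr19:49689658-49689717, both on the plus strand, and the Nqo1 probe at chr19:37251727-37251786 on the minus strand.

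Of 30367 probes, between 55.9% and 57.2% were well above background, the upper quartile of the signal (its 75th percentile) lay between 926 and 964, and no spot was saturated. Osteoblast markers were present, with 7 of 7 well above background on each array and a summed signal of 29650 to 29884. The sum hides ratios of both signs: with the high dose 2 of the 7 were above the control and 5 below, against 47.9% of all genes above. Their log2 ratios ran from -0.23 ± 0.05 for Col1a1 to 0.26 ± 0.02 for Spp1. By more than 2 spot errors 1 was above 0 and 2 below, against 10.8% and 12.8% of all genes. With the arrays centred on spike-in control probes Ibsp and Alpl stood above 0, at 0.13 and 0.02, so their signs depend on the scaling. Bglap was dim, at 41.5 to 49.9. Of the markers of other cell types, 3 of 5 macrophage genes, 2 of 4 endothelial genes and 1 or 2 of 5 adipocyte genes were well above background, with summed signals of 354 to 374, 197 to 240 and 150 to 168. None of 4 epithelial genes was, and Ptprc and Adgre1 (macrophages), Kdr and Tek (endothelium) and Adipoq, Plin1 and Pparg (adipocytes) were not well above background on any array. RNA came from whole cultures, so fewer cells of a kind and less RNA per cell cannot be told apart. Signals below are scaled to the 75th percentile of the control array.

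With the high dose all 9 measured NRF2 targets had mean ratios above the control, by small amounts, but for Txnrd1 and Me1 this is the mean of probes of opposite sign (0.25 and -0.14, and -0.11 and 0.19), so no direction is read for these 2 genes. Hmox1 was 1.26-fold and Osgin1 1.60-fold higher, and the other 7 lay between 1.03-fold and 1.10-fold. The median log2 ratio was 0.10, against -0.01 over all 14495 genes measured, of which 47.9% were above 0. A rule of at least 1.2-fold higher took 2 of the 9 targets and 7.16% of all genes. None of the 9 was at least 1.2-fold lower, against 7.87% of all genes, and none was 2-fold higher or lower, against 0.0621% and 0.0552%. By more than 2 spot errors 5 of the 9 were above 0 (Hmox1, Osgin1, Gclc, Srxn1 and Gsr), against 10.8% of all genes. The spot error falls as spots per probe rise, so this rule favours probes with 10 spots, such as those of Hmox1 and Gsr. Of the probes compared, 8917 had 2 spots and 1030 had 10. The shares over all genes do not allow for this, here and below. The 75th percentile fixes where 0 lies: centring on the spike-in control probes of the array would raise every ratio to the control, by 0.15 for the high and 0.14 for the low dose.

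**Figure D1:**
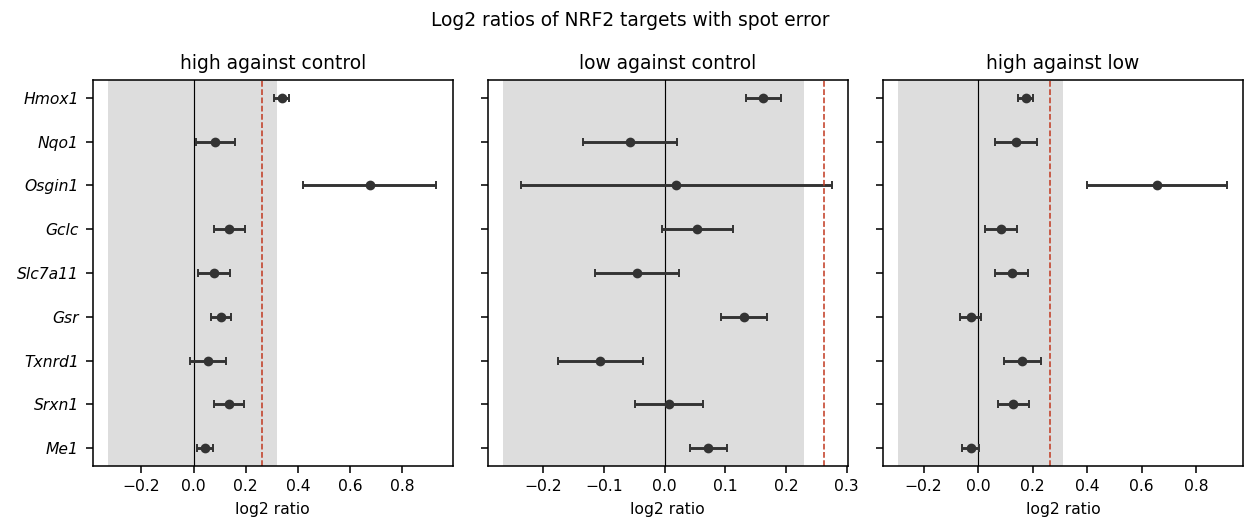
Log2 ratio (x axis) of each of the 9 measured NRF2 targets (y axis) in the 3 comparisons, with the spot error as bars, the range that holds the central 90% of all measured genes in grey and the 1.2-fold line dashed. With the high dose Hmox1 (0.34) and Osgin1 (0.68) lie beyond the grey range, and no target lies beyond it with the low dose.

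Hmox1 encodes heme oxygenase 1, the inducible enzyme that opens heme into biliverdin, iron and carbon monoxide. Its probe has 10 spots per array. The spots read 960 to 1106 for the control (median 1053), 1111 to 1264 with the low dose (median 1184) and 1271 to 1421 with the high dose (median 1322). Every low dose spot was thus above every control spot, and every high dose spot above every low dose spot. Among 1027 probes with 10 spots that were well above background, 4 (0.389%) were ordered in this way, those of Hmox1, Adm, Sdc4 and Slc2a1. The log2 ratio of Hmox1 was 0.34 ± 0.03 with the high dose and 0.16 ± 0.03 with the low dose, and 0.17 ± 0.03 for high against low. Its ratio exceeded that of 95.6% of genes with the high dose and 91.4% with the low dose. Under the 10 other ways of processing it ranged from 0.33 to 0.49 with the high dose and from 0.16 to 0.31 with the low dose.

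Nqo1 encodes a quinone reductase and is often read as a marker of NRF2 activity. Its 2 spots read 524 and 534 for the control, 484 and 535 with the low dose and 560.6 and 560.8 with the high dose. The high dose spots were above all others, while the low dose and control spots overlapped. The log2 ratios were 0.08 ± 0.07 with the high dose, -0.06 ± 0.08 with the low dose and 0.14 ± 0.08 for high against low, each within 2 spot errors. Among probes with 2 spots, 25.2% had every spot higher with the high dose than on the control array, and 23.6% had every spot higher than with the low dose.

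Osgin1 encodes an oxidative stress induced growth inhibitor. Its spots read 23.6 and 25.6 for the control, 24.4 and 25.4 with the low dose and 38.1 and 40.5 with the high dose. Both high dose spots stood apart, and the low dose spots lay within the range of the control spots. High dose spots all above the control were found for 25.2% of probes with 2 spots, and all above the low dose for 23.6%. The log2 ratio was 0.68 ± 0.26 with the high dose, 0.02 ± 0.26 with the low dose and 0.66 ± 0.26 for high against low. This is a dim probe: its mean level over the high dose and control arrays exceeded that of 2.97% of measured genes, and 1 of its 2 low dose spots was not well above background. Under normexp background correction with an offset of 50, which damps dim probes, the ratio was 0.13 with the high dose and 0.23 for high against low.

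**Figure D2:**
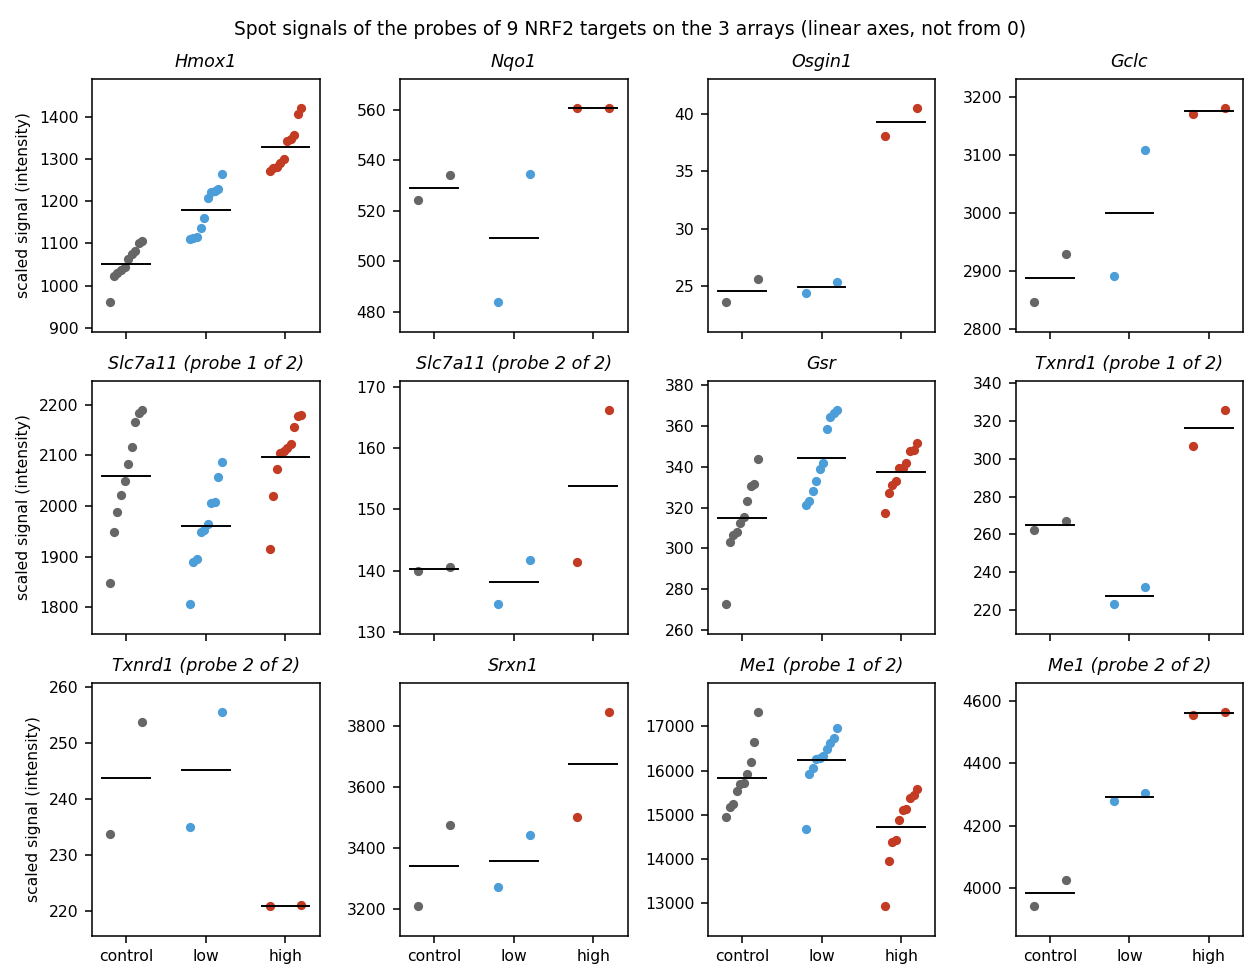
Signal of each spot, scaled to the 75th percentile of the control array (y axis, intensity, linear and not from 0), on the control, low and high dose arrays (x axis), for the 12 probes of the 9 measured genes, with points for spots and a line for their mean. The 10 spots of Hmox1 form 3 separate ranges, and the probe pairs of Txnrd1 and Me1 run different ways. The 2 high dose spots of Osgin1 stand apart, above the control as for 25.2% of probes with 2 spots and above the low dose as for 23.6%.

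Glutathione synthesis is represented by Gclc and Gclm, the catalytic and modifier subunits of glutamate-cysteine ligase, and by Slc7a11, the light chain of the cystine importer. Glutathione recycling is represented by Gsr, which reduces oxidized glutathione. The Gclc spots read 2846 and 2930 for the control, 2891 and 3108 with the low dose and 3170 and 3180 with the high dose. The high dose spots were the highest, and the low dose spots overlapped the control. As for Nqo1, 25.2% of probes with 2 spots had every high dose spot above the control, and 23.6% had every one above the low dose. Its log2 ratio was 0.14 ± 0.06 with the high dose, 0.05 ± 0.06 with the low dose and 0.08 ± 0.06 for high against low. The Gclm spots read 4.11 and 4.56, 4.66 and 5.58, and 4.70 and 5.13 in the order control, low and high. No spot was well above background, so no fold is given. Of the 60 bases of that probe 9 (15%) are G or C, against a median of 45% over all probes. None of the 8 probes with as small a share, the Gclm probe among them, was well above background on any array. Over all probes 55.9% to 57.2% were on each array. Whether the share of G and C bears on the Gclm signal was not tested.

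Slc7a11 has 2 probes that differ little between arrays. The probe with 10 spots read 1848 to 2190 for the control (median 2066), 1806 to 2087 with the low dose (median 1958) and 1915 to 2181 with the high dose (median 2112). These ranges overlapped. The other probe read 140 and 141, 134 and 142, and 141 and 166. As the mean of both probes the log2 ratio was 0.08 ± 0.06 with the high dose, -0.05 ± 0.07 with the low dose and 0.12 ± 0.06 for high against low. Slc7a11 also belongs to the amino acid transport genes that the stress factor ATF4 is known to control.

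The Gsr probe had 10 spots, which read 272 to 344 for the control (median 314), 321 to 368 with the low dose (median 340) and 317 to 352 with the high dose (median 340). The ranges overlapped, and the medians of the treated arrays were the same to 3 digits. Gsr stood at 0.10 ± 0.04 with the high dose and 0.13 ± 0.04 with the low dose, and high against low was -0.03 ± 0.04, within the spot error. The files list the Gsr probe at chr16:62257899-62258792 of rn4, 894 bases for a probe of 60, so the listed place is not 1 unbroken stretch.

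Thioredoxin reduction is represented by Txnrd1, the cytosolic thioredoxin reductase, and Srxn1, which restores hyperoxidized peroxiredoxins. The 2 Txnrd1 probes went opposite ways with the high dose. The probe listed at chr7:23055528-23055561 read 263 and 267 for the control, 223 and 232 with the low dose and 307 and 326 with the high dose, a log2 ratio of 0.25 ± 0.09 with the high dose and -0.22 ± 0.09 with the low dose. The probe at chr7:23065196-23065255 read 234 and 254, 235 and 255, and 221 and 221, a log2 ratio of -0.14 ± 0.11 and 0.01 ± 0.11. Every high dose spot of this probe was below the control spots, as for 28.6% of probes with 2 spots. Their mean, 0.06 ± 0.07 with the high dose, thus hides a disagreement, and no direction is read for Txnrd1. Spike-in centring raises every ratio of the high dose to the control by 0.15. The sign of the second probe thus depends on the scaling, but the gap between the probes does not. The files list 34 bases for the first of these probes, which has 60.

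The Srxn1 spots read 3210 and 3477 for the control, 3273 and 3442 with the low dose and 3505 and 3847 with the high dose. The high dose spots were the highest, and the low dose spots lay within the control range. Every high dose spot was above the control for 25.2% of probes with 2 spots, and above the low dose for 23.6%. Its log2 ratio was 0.14 ± 0.06 with the high dose, 0.01 ± 0.06 with the low dose and 0.13 ± 0.06 for high against low.

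Me1 encodes the cytosolic malic enzyme, which makes NADPH from malate. Its probes also disagreed. The probe with 10 spots had medians of 15703 on the control array, 16301 with the low dose and 14982 with the high dose, with ranges of 14955 to 17323, 14687 to 16972 and 12925 to 15584. The probe with 2 spots read 3942 and 4027, 4278 and 4307, and 4556 and 4565. The first was thus lower with the high dose, with a log2 ratio of -0.11 ± 0.02, and the second higher, with 0.19 ± 0.06. Their mean was 0.04 ± 0.03, and with the low dose 0.07 ± 0.03, where both probes were above 0. Since spike-in centring adds 0.15 with the high dose, the sign of the first probe there depends on the scaling.

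With the low dose the targets as a group stayed near the control. The median log2 ratio was 0.02, against 0.00 over 14621 genes, with 6 of 9 above 0, against 50.4% of those genes, and a range from -0.11 for Txnrd1 to 0.16 for Hmox1. The Txnrd1 value is the mean of probes at -0.22 and 0.01. None was at least 1.2-fold higher, against 3.99% of all genes, and none was at least 1.2-fold lower, against 5.08%. Hmox1, Gsr and Me1 were above 0 by more than 2 spot errors, against 4.31% of genes, and none of the 9 was below 0 by as much, against 4.62%. Each of Hmox1, Gsr and Me1 has a probe with 10 spots, which makes the spot error smaller, so the count and the share are not alike in spot number. The 3 targets with a mean below 0, Txnrd1, Nqo1 and Slc7a11, stood at 0.04, 0.09 and 0.10 with the arrays centred on spike-ins, so their direction depends on the scaling.

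Compared with the low dose array, the high dose array was higher for 7 of the 9 targets by their means, Txnrd1 among them with probes at 0.47 and -0.15. The median log2 ratio was 0.13, against -0.01 over 14480 genes, of which 47% were above 0. Spike-in centring moved these ratios by 0.01. Osgin1 alone was at least 1.2-fold higher, against 6.97% of all genes, and none of the 9 was at least 1.2-fold lower, against 6.13%. In this comparison 5 of the 9 were above 0 by more than 2 spot errors (Osgin1, Hmox1, Srxn1, Slc7a11 and, by a mean of opposed probes from which no direction is read, Txnrd1), against 9.59% of genes, and none was below 0 by as much, against 10.7%. Gsr and Me1 stood at -0.03 ± 0.04 and -0.03 ± 0.03. From control through low to high dose 4 of the 9 were higher at each step (Hmox1, Gclc, Srxn1 and Osgin1), as were 19.9% of 14388 genes. Of these 4 steps from control to low dose, that of Hmox1 alone exceeded 2 spot errors.

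The other genes of the pathway had a pooled median near 0 that differed between lists. Of 76 genes in 6 lists (regulators, glutathione, thioredoxin and peroxiredoxin, NADPH supply, heme and iron, and detoxification), 65 were measured with the high dose, 32 above and 33 below 0, with a median of -0.01, equal to that over all genes to 2 decimals. Of these 65, 3 were at least 1.2-fold higher (Akr1b8, Nfe2l2 and Gsta1), against 7.16% of all genes, and 2 at least 1.2-fold lower (Bach1 and Glrx), against 7.87%. The regulators and the detoxification genes each had a median of 0.08, close to that of the targets, with 7 of 9 and 6 of 10 above 0, and for high against low their medians were 0.08 and 0.13. By more than 2 spot errors 13 were above 0 and 8 below, against 10.8% and 12.8% of all genes. With the low dose 36 of 66 were above 0, against 50.4% of all genes, and Txnip alone was at least 1.2-fold higher, at 0.40 ± 0.26, against 3.99%. For high against low 31 of 66 were above 0, against 47%. Here 5 were at least 1.2-fold higher (Akr1b8, Cul3, Fech, Nfe2l2 and Maff), against 6.97%. Another 4 were at least 1.2-fold lower (Bach1, Txnip, Gstm1 and Glrx), against 6.13%. Of these, Fech, Maff, Bach1 and Txnip lay within 2 spot errors of 0. By more than 2 spot errors 13 were above 0 and 9 below, against 9.59% and 10.7%.

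Nfe2l2, which encodes NRF2 itself, was 1.23-fold higher with the high dose and level with the low dose. Its spots read 4529 and 4571 for the control, 4431 and 4759 with the low dose and 5446 and 5734 with the high dose, and only the high dose spots stood apart. The log2 ratio was 0.30 ± 0.06 with the high dose and 0.01 ± 0.06 with the low dose. Keap1, whose product restrains NRF2, stood at -0.04 ± 0.08 with either dose. Cul3 stood at 0.20 ± 0.09 with the high dose and -0.10 ± 0.09 with the low dose. Bach1, the repressor, had the lowest ratio of the regulators, -0.54 ± 0.26, from spots of 38.5 and 57.3 on the control array and 23.5 and 44.7 with the high dose. Those spots overlapped, and 1 of the 2 high dose spots was not well above background. Sqstm1, whose product binds KEAP1, stood at 0.18 ± 0.04 with the high dose as the mean of 2 probes, and each probe had every spot above the control. The dimmer of these probes overlapped between the high and low dose arrays. Such separation from the control, seen for Nfe2l2 and Sqstm1, was common, with 25.2% of probes with 2 spots having every high dose spot higher. For high against low the share was 23.6%.

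Among detoxification genes Akr1b8, an aldo-keto reductase gene, was the highest at 1.33-fold. Its spots read 2712 and 2772 for the control, 2796 and 2897 with the low dose and 3593 and 3725 with the high dose, so every step was free of overlap. Among probes with 2 spots 4.44% were ordered in this way. Its log2 ratio was 0.42 ± 0.06 with the high dose and 0.05 ± 0.06 with the low dose. Cbr3, a carbonyl reductase gene, stood at -0.23 ± 0.09 with the high dose.

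Glutathione genes went both ways with the high dose, with 6 of 18 above 0 and a median of -0.03. By more than 2 spot errors 4 were above 0 and 3 below, against 10.8% and 12.8% of all genes. Gsta1, a glutathione transferase gene, stood at 0.27 ± 0.03, with medians over 10 spots of 1601 on the control array, 1658 with the low dose and 1957 with the high dose. Every high dose spot of Gsta1 was above every control spot, as for 6.12% of probes with 10 spots. The same held for the 10 spots of Gpx1, at 0.16 ± 0.02. Glrx, which encodes glutaredoxin, stood at -0.37 ± 0.03, with medians of 646, 617 and 497. Every high dose spot of Glrx was below every control spot, as for 6.99% of such probes.

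The thioredoxin list had a median of -0.02, with 6 of 12 above 0. Sesn2 (0.23 ± 0.12, 1 spot per array) and Txnrd3 (-0.20 ± 0.15) lay furthest from 0, both within 2 spot errors. By more than 2 spot errors 2 genes were above 0 and 1 below, against 10.8% and 12.8% of all genes. Txn1, with 10 spots, was among those above, at 0.15 ± 0.02, and its spots overlapped the control. The NADPH list had a median of -0.02, with Idh1 at 0.17 ± 0.09 and Tkt, of the pentose phosphate pathway, at 0.08 ± 0.05. In the heme and iron list (median -0.01) no gene was 1.2-fold apart with the high dose. Blvra, for a biliverdin reductase, stood at -0.18 ± 0.08 and Fech, for ferrochelatase, at 0.12 ± 0.20. Hmox2, the constitutive relative of Hmox1, stood at -0.12 ± 0.06 with the high dose. Both of its spots were below the control, as for 28.6% of probes with 2 spots. The 2 heme oxygenase genes thus had ratios of opposite sign, but with spike-in centring Hmox2 stood at 0.04. Spike-in centring adds 0.15 to every ratio of the high dose to the control. The medians of these lists were then 0.13, 0.13 and 0.14, and that of all genes moved above 0 as well.

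**Figure D3:**
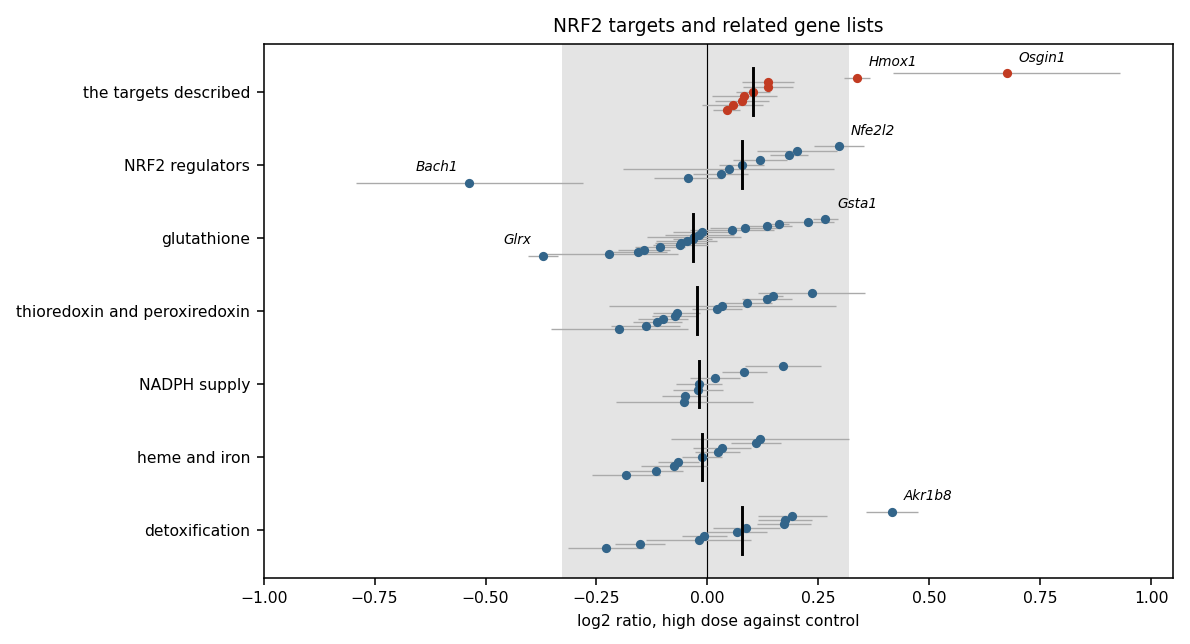
Log2 ratio of the high dose against the control (x axis) for the measured genes of each list (y axis), with a point per gene, its spot error, the list median as a vertical bar and the range of the central 90% of all genes in grey. The 9 NRF2 targets all lie right of 0 (median 0.10), Txnrd1 and Me1 as means of probes that disagree, the regulators and detoxification genes have medians of 0.08, the glutathione, thioredoxin, NADPH and heme lists have medians from -0.03 to -0.01, and labels mark genes at least 1.2-fold apart.

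The genes with ratios most like those of Hmox1 were sought among 4008 others at or above the median level with all spots well above background. Likeness was the distance between pairs of log2 ratios to the control at the 2 doses, which share the control array. The nearest were Snx7, Golph3, Stc1, Eno2 and Fam174a, at distances of 0.012 to 0.021. In all 23 of the 4008 genes lay within 0.05, a small part of them, so a pattern like that of Hmox1 was uncommon but not its alone.

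**Figure D4:**
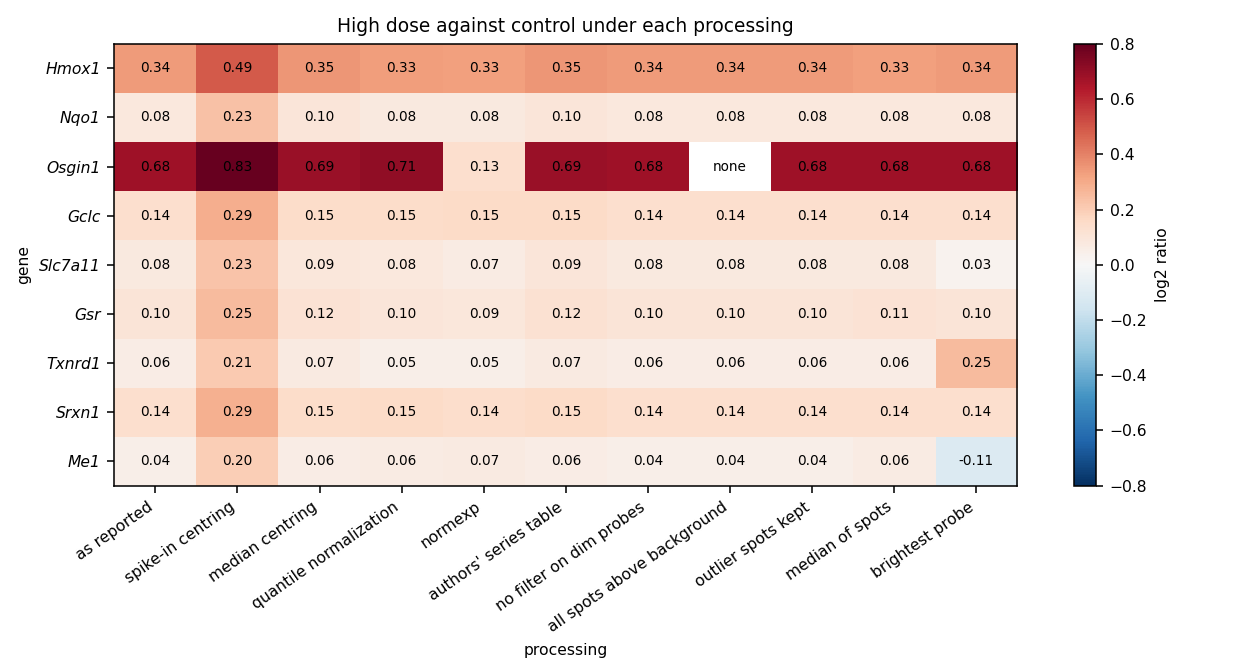
Log2 ratio of the high dose against the control (colour and printed value) for each of the 9 targets (y axis) as reported and under 10 other ways of processing (x axis). Hmox1 stays between 0.33 and 0.49, Osgin1 falls to 0.13 under normexp and has no value when all spots must be well above background, and Me1 turns to -0.11 with its brightest probe.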

How the data were processed

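Scanner files with intensity values were deposited by the authors, made with Agilent Feature Extraction 10.7.3.1 (protocol GE1_107_Sep09, design 028279, rn4 coordinates) per the file headers, background-subtracted and detrended within each array and not normalized between arrays. The flags of 0 or 1 for spots (other) are those the authors deposited. The authors also deposited a table whose values are a ratio, the processed signal over a constant of 823 (high), 849 (low) and 823 (control). Its column medians were 0.0734, 0.0731 and 0.0737; scale and centring were found by comparison, and how the constant was chosen is not given in these sources.

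From these values each array was scaled to the 75th percentile of its 58717 non-control spots, and log2 was taken. Outlier spots were left out (none belonged to the 10 genes), spots averaged, and 50% of the spots of a probe had to be well above background for it to count as such. A gene's log2 ratio is the mean over its probes that pass on both arrays. The spot error pools the SD between repeat spots in 20 bins of level. The text names all 10 targets, genes of the wider lists at least 1.2-fold apart or otherwise furthest from 0, and some others as examples chosen after their values were seen. Spike-in centring used 7 of 10 spike-in probes. Python 3.11.15 and limma 3.58.1 (normexp) were used, and the ratios were tested on simulated data. The targets, lists and rules were chosen with earlier results of these data known. No probability is given, and the alternatives are in the closing section.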

Additional observations from a re-analysis of the deposited data

How the results depend on the processing

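Under spike-in centring the targets had a median log2 ratio of 0.25 for high against control and 0.16 for low against control, and 4 and 2 targets were at least 1.2-fold higher, against 21.8% and 13.3% of all genes. This centring adds 0.15 and 0.14 to every ratio, and so also to the medians over all genes, which were -0.01 and 0.00 without it. With normexp 1 target was at least 1.2-fold higher for high against control (2.72% of genes) and 0 for high against low (1.85%). With all spots well above background on all arrays, which leaves out Osgin1, the counts were 1 (6.57%) and 0 (6.36%). With the brightest probe 2 were higher for high against low (7.02%), the second being Txnrd1, whose probes disagree. No other setting moved a median beyond the spot error or a count beyond 1.5 times, and no target past 1.2-fold changed sign. For single targets spike-in centring moved 16 of 27 ratios beyond their spot error, the brightest probe 6, normexp 3 and quantile normalization 1. Median centring, the authors' table, no filter on dim probes, kept outlier spots and the median of spots moved none. No paired analysis was possible because each group holds 1 array. The number of arrays limits every comparison, and Gclm could not be measured at its signal.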
